A study of Mus musculus with 19 samples.

Results

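The rows described here are the microRNA gene rows of an RNA-seq table of cultured mouse hippocampal neurons. A row was taken when its gene name began with Mir or Mirlet7 and a number and its value was 5 RPKM or more (reads scaled to gene length and library depth) in at least 3 of the 9 libraries. That gave 128 of 1121 microRNA-named rows, among 24058 gene names in all. Of the 1121 rows, 527 were at 0 in all 9 libraries. The 128 rows comprise 126 hairpin rows, whose RefSeq spans run from 57 to 147 bases, and 2 rows of longer host transcripts, Mir22hg and Mirlet7bhg.

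Hippocampal neurons were taken at embryonic day 17 and kept in culture for 10 days. The RNA-seq neurons came from ICR mice and fell into 3 groups of 3 libraries. The groups were untreated neurons, neurons with tetrodotoxin (TTX, which blocks voltage-gated sodium channels and so silences firing; its duration is not stated in the labels), and neurons given bicuculline with 4-aminopyridine for 3 h (Bic/4AP, a GABA-A receptor antagonist with a potassium channel blocker, which excites the culture). ICR neurons also gave H3K27ac peak lists (2 untreated, 2 Bic/4AP) and H3K4me1 peak lists (2 untreated), whereas CpG methylation came from 1 library per treatment of C57BL/6 neurons. No genotype change is labelled in any group. Separate cultures are not labelled for the 3 libraries of a group; a p-value here therefore refers to library spread, which may be technical.

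A microRNA is made from a long primary transcript. Drosha and Dgcr8 cut the hairpin out in the nucleus, Xpo5 carries it to the cytoplasm, Dicer1 cuts it to a duplex, and an Argonaute protein keeps 1 strand, which finds target mRNAs mainly through its seed. In neurons, microRNAs of the miR-132/212, miR-134, miR-137, miR-138 and miR-9 families are known for roles in dendrites, spines and differentiation, and the imprinted Dlk1-Dio3 region holds a large brain-expressed cluster. Libraries of poly(A)-selected RNA do not measure the mature microRNA. A value on a hairpin row comes from reads that lie on the hairpin's span, which can be reads of the primary transcript, of a host gene that the span lies in, or of a pre-mRNA.

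The sequences that follow are the mature microRNAs of the rows the results turn on, from RefSeq on GRCm38.p6, 5′ to 3′, with the seed (bases 2 to 8) in capitals. A mature sequence was found for 116 of the 128 rows, as 202 mature names with 196 seeds. Only 6 seeds were shared by more than 1 mature name. Of these 6, 4 pairs come first, and miR-9-5p, which Mir9-1, Mir9-2 and Mir9-3 all encode, comes next.
miR-132-3p: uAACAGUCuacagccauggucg
miR-212-3p: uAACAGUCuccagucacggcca
miR-376b-5p: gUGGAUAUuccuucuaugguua
miR-376c-5p: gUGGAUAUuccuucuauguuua
miR-370-5p: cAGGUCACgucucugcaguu
miR-1193-3p: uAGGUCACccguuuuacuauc
miR-3070-3p: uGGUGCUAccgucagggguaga
miR-3070-2-3p: uGGUGCUAuggucagggguaga
miR-9-5p: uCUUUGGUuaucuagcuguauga

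The remaining sequences, apart from the last pair, have seeds that no other mature name of the chosen rows shares. That last pair comes from hairpins outside the chosen rows, whose seeds were not part of this count. The microRNAs miR-377-3p, miR-134-5p, miR-679-5p, miR-668-3p, miR-409-3p and miR-1188-5p come from the Dlk1-Dio3 region, the next 5 are rows that stood apart by treatment, and the last pair is encoded inside the host transcripts Mir22hg and Mirlet7bhg.
miR-377-3p: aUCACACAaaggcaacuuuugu
miR-134-5p: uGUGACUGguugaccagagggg
miR-679-5p: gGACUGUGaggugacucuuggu
miR-668-3p: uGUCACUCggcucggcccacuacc
miR-409-3p: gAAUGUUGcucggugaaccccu
miR-1188-5p: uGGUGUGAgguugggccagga
miR-10b-5p: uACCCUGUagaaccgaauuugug
miR-137-3p: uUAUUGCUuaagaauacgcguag
miR-138-5p: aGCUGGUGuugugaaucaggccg
miR-325-3p: uUUAUUGAgcaccuccuaucaa
miR-670-5p: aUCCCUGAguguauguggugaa
miR-22-3p: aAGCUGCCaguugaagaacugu
let-7b-5p: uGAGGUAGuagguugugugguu

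The rows rested on few reads. Every RPKM value of the 128 rows was a whole multiple of the value of 1 read within 0.1 of a read, which gave the reads behind it. For 113 rows this held at the RefSeq span length. For the rest, such as the spliced Mir22hg, another length was picked so that the reads came out whole, and their read numbers depend on it. A row had a median of 29.5 reads over all 9 libraries together, from 9 to 3575, and 99 rows had 20 or more. The highest number is that of Mir684-1, whose picked length is far above its RefSeq span. In a single library the median row had 2, 1.5 and 1 reads with TTX, 5, 8 and 6 reads untreated, and 0, 0 and 1 reads with Bic/4AP. A read on a 1 kb gene was worth 0.0791 to 0.103 RPKM in the TTX libraries, 0.1003 to 0.177 RPKM untreated and 0.218 to 0.230 RPKM with Bic/4AP, a value that falls with depth. The 3 shallowest libraries were thus those with Bic/4AP, while the untreated and TTX ranges overlapped. Floors of 3 reads and intervals of shares cover counting error only, since the reads carry no molecular identifiers. A fold given as at least a value divides the mean of the other group by the floor. It takes that mean as exact, so the error of the mean is not covered. Intervals of log2 differences, by contrast, come from the spread between libraries.

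Most rows were highest in the untreated libraries. Between 112 and 116 rows reached 5 RPKM in an untreated library, against 37 to 39 in a TTX library and 33 to 39 in a Bic/4AP library. Between 2 and 7 rows were at 0 in an untreated library, 37 to 53 in a TTX library and 63 to 69 in a Bic/4AP library. The choice of rows is part of this: 61 rows reached the threshold in the untreated libraries alone and 4 in the Bic/4AP libraries alone, and such rows had to differ. A further 14 rows reached it in all 9 libraries and 49 by other patterns. Just inside the threshold were Mir7032, Mir1938, Mir7236 and Mir212, which had 5.01, 5.01, 5.01 and 5.07 RPKM in the library that set their place, and just outside were Mir7038, Mir7070, Mir6990 and Mir218-2 at 4.9997, 4.90, 4.86 and 4.84 RPKM.

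**Figure D1:**
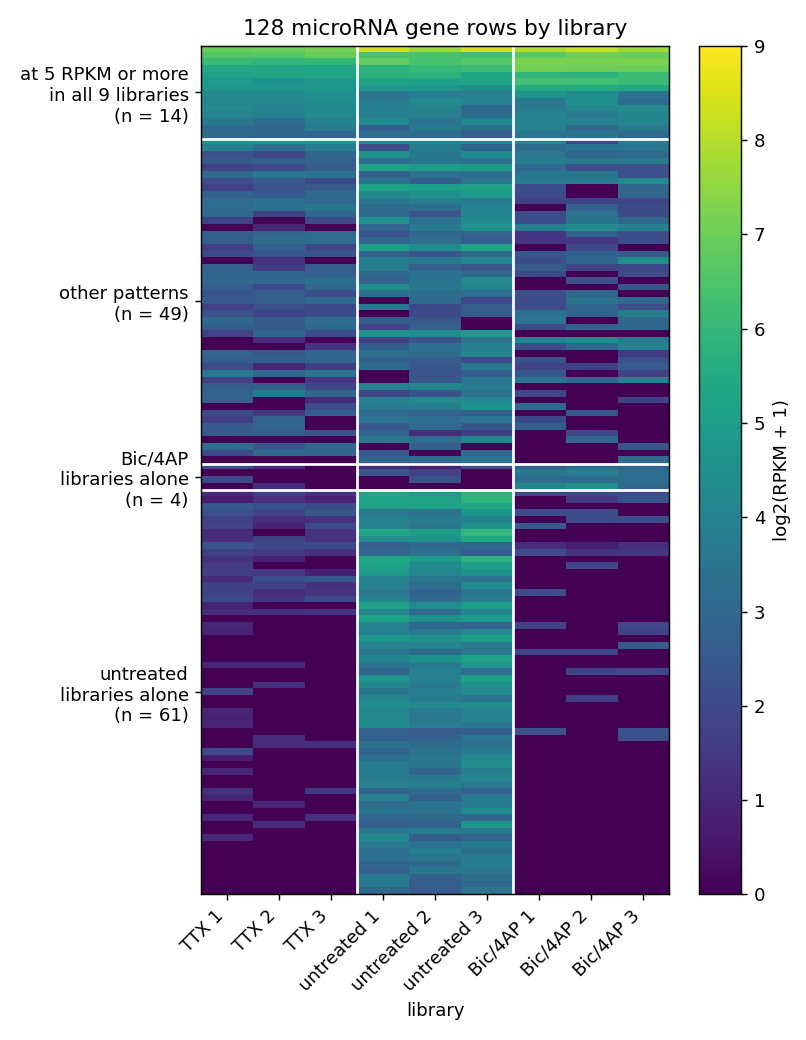
Log2(RPKM + 1) of the 128 rows (lines) in the 9 libraries (columns), grouped by the libraries in which a row reached 5 RPKM and ordered by mean within a group. The 61 rows of the lowest block are bright in the 3 untreated columns and mostly dark in the other 6, while the 14 rows of the top block are above 0 in all 9 columns.

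The microRNA rows that the rule left out were also higher untreated. The 993 such rows summed to 672, 747 and 923 RPKM untreated, 222, 177 and 207 RPKM with TTX and 294, 307 and 317 RPKM with Bic/4AP. The untreated libraries were above all 6 treated libraries. Of these rows, 209, 302 and 243 were above 0 untreated, 150, 120 and 110 with TTX and 74, 88 and 90 with Bic/4AP.

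Other kinds of RNA moved with the untreated libraries. The summed level of 16 RNAs that lack poly(A) tails (RNase P and MRP, telomerase, Cajal body, nucleolar, minor spliceosome and vault RNAs; 23 were listed and 16 were in the files) was 1188, 786 and 1277 RPKM untreated, 44.6, 54.3 and 59.9 RPKM with TTX and 96.8, 91.1 and 75.3 RPKM with Bic/4AP, and all 13 tested were lower in both treated groups. Of all genes tested, 23.5% were called lower with TTX and 42.5% with Bic/4AP. Rprl1 was at 0 in all untreated libraries, Rprl1 and Rnu12 in all TTX libraries, and Scarna17, Rnu11 and Rnu12 in all Bic/4AP libraries. The 16 choroid plexus markers summed to 726, 526 and 789 RPKM untreated, 30.5, 27.4 and 23.1 RPKM with TTX and 39.2, 39.9 and 44.3 RPKM with Bic/4AP; all 16 were lower in both treated groups and none was at 0. Neuron markers (10 genes) summed to 727 to 874 RPKM untreated, 679 to 762 RPKM with TTX and 1196 to 1245 RPKM with Bic/4AP, with none of the 10 at 0 in a group. Astrocyte markers (10 genes) summed to 136 to 148 RPKM untreated and 177 to 235 RPKM in the treated libraries, with none at 0 in a group. Oligodendrocyte lineage markers (8 genes) summed to 23.0 to 29.7 RPKM untreated, 43.0 to 52.1 RPKM with TTX and 22.2 to 28.7 RPKM with Bic/4AP. Vascular markers (8 genes) summed to 21.5 to 28.2, 36.2 to 43.2 and 22.5 to 32.2 RPKM in the same order. With TTX, 4 of the 6 tested oligodendrocyte markers were called higher and the other 2 lower. Of the 6 tested vascular markers, 4 were called higher and 0 lower with TTX (all genes: 40.6% and 23.5%). Sox10 and Cldn5 were at 0 in all Bic/4AP libraries. Microglia markers (8 genes) summed to 9.96 to 17.01 RPKM in any library. The 12 nucleus-retained long noncoding RNAs summed to 505 to 673 RPKM untreated, 241 to 285 RPKM with TTX and 375 to 456 RPKM with Bic/4AP. Of these 12, 10 were called lower with TTX (23.5% of all genes). With Bic/4AP, 7 were called lower and 3 higher (42.5% and 29.6% of all genes). Their list includes Meg3, Rian and Mirg, host transcripts of the Dlk1-Dio3 hairpins, so it is not separate from those rows. The part of these RNAs in the microRNA rows was not tested. In bulk RNA, fewer cells of a type and less RNA per cell cannot be told apart.

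**Figure D2:**
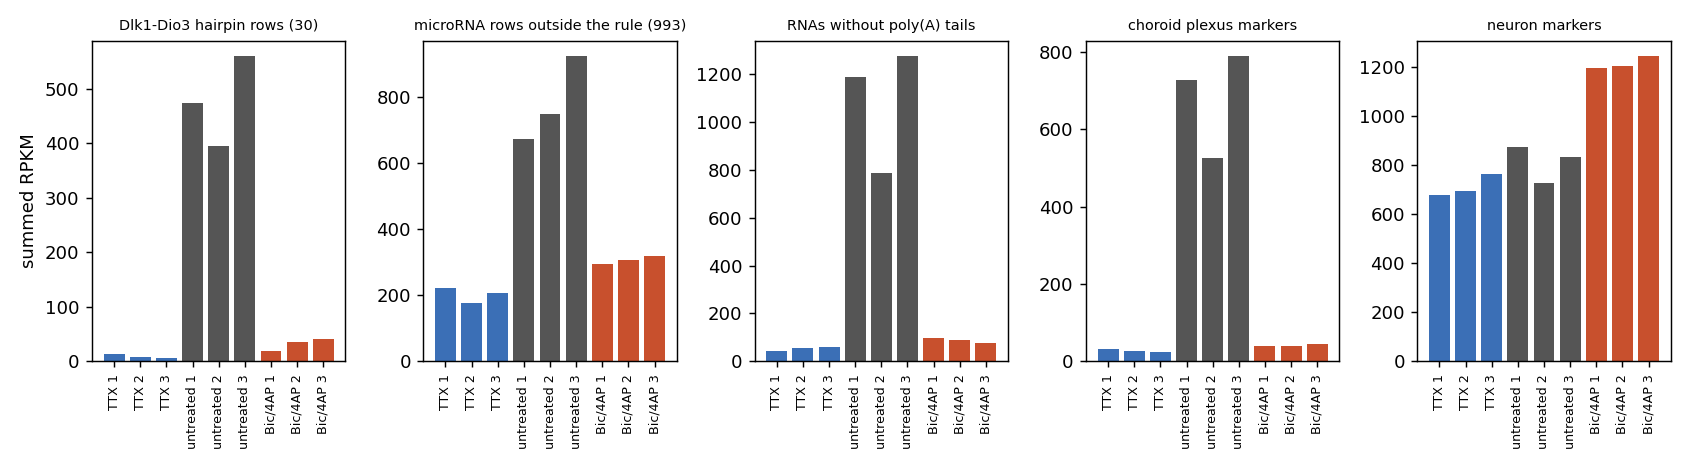
Summed RPKM (bars, 1 per library, axes from 0) of the 30 Dlk1-Dio3 hairpin rows, the 993 microRNA rows outside the rule, 16 RNAs without poly(A) tails, 16 choroid plexus markers and 10 neuron markers. The 3 untreated libraries are highest in each panel but the last, where the Bic/4AP libraries are.

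Values were tested with limma on log2(RPKM + 1) across all 14801 genes at 1 RPKM or more in 3 libraries, with p adjusted over all of them by the Benjamini-Hochberg method and called at 0.05. This scale understates changes of low rows. Against untreated, 100 rows were called with Bic/4AP (72.1% of all genes were called either way), 14 higher and 86 lower, where 29.6% of all genes tested were called higher and 42.5% lower, and the median row differed by -2.58 (log2) against -0.12 for all genes. With TTX, 94 rows were called (64.1% of all genes), 4 higher and 90 lower, where 40.6% of all genes were called higher and 23.5% lower, and the median row differed by -2.33 against 0.13. Since 61 rows passed the threshold through the untreated libraries alone, these counts are a description of the choice as well and support nothing. In Bic/4AP against TTX, 55 rows were called (76.8% of all genes), 24 higher and 31 lower. Of all genes, 23.7% were called higher and 53.1% lower. The split of higher to lower rows was 30 to 20 with quantile normalization, 39 to 18 with cyclic loess and 27 to 14 with voom on recovered reads. In these settings 69.8%, 70.4% and 76.9% of all genes were called either way. The libraries of the groups did not overlap for 95, 97 and 46 rows in the 3 comparisons in this order, against 71.3%, 69.6% and 81.5% of all genes. Any pair of the comparisons shares a group of libraries.

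The 14 rows at 5 RPKM or more in every library are those whose choice fixes no direction. Against untreated, 6 were called higher with Bic/4AP and none lower (29.6% and 42.5% of all genes), the 6 being Mir22hg, Mir684-1, Mir684-2, Mir682, Mir703 and Mir568. With TTX, 2 were called higher (Mir682, Mir3061) and 5 lower (Mir684-1, Mir684-2, Mir703, Mir568, Mir6236), against 40.6% and 23.5%. The TTX call of Mir3061 ended with cyclic loess (log2 difference 0.43) and voom (0.70). It also ended without the third TTX library (0.65) or the first untreated one (0.62). With voom the TTX calls of Mir682 (0.36) and Mir568 (-0.45) ended as well. The median of the 14 was 0.36 for Bic/4AP and -0.00 for TTX, on the log2 scale.

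Mir22hg, the long noncoding host transcript of miR-22, was higher with Bic/4AP. It had 25.2, 25.7 and 21.5 RPKM untreated, 25.8, 25.5 and 26.0 RPKM with TTX and 43.3, 43.3 and 41.9 RPKM with Bic/4AP, from 218 to 575 reads a library. The Bic/4AP libraries lay above the other 6, which overlapped. The level was 1.77 times the untreated mean (log2 difference 0.81, SE 0.06, adjusted p = 4.11e-07 by limma), and between 0.66 and 0.85 in every alternative run. TTX did not differ from untreated beyond the spread (log2 difference 0.09, adjusted p = 0.221 by limma).

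The 300 bases around the start site of Mir22hg (chr11:75461289-75461588, plus strand, GRCm38.p6) are shown because H3K27ac peaks lay on them and their CpGs were unmethylated. An overlapping H3K27ac peak was in the second untreated list (the authors' peak score 968) and in both Bic/4AP lists (195 and 2658), while the nearest peak of the first untreated list was 61965 bases away. All 11 CpGs that the 3 methylation libraries shared in the window were at a fraction of 0 in each. Capitals mark TGACGTAA, a variant of the cAMP response element, 176 bases before the start site. Among 32851 promoter windows of the same length, TGACGTAA was on either strand in 0.499%. Neither TGACGTCA (1.79% of windows) nor TGANTCA (7.81%) was in this window on either strand.
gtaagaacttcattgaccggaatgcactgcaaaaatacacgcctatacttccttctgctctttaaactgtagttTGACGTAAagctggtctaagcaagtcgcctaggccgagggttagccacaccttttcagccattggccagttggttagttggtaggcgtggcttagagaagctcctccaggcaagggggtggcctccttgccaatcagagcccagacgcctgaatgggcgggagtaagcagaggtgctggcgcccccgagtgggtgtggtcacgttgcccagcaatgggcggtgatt

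Mir684-1 and Mir684-2 followed a graded order, TTX below untreated below Bic/4AP. Mir684-2 had 42.3, 40.2 and 38.4 RPKM with TTX, 55.7, 64.1 and 70.9 RPKM untreated and 134, 127 and 123 RPKM with Bic/4AP, from 27 to 55 reads a library. No library of a group overlapped another group. Bic/4AP was 2.01 times untreated (log2 difference 1.00, SE 0.08, adjusted p = 3.76e-07 by limma) and TTX 0.634 times (-0.64, adjusted p = 3.41e-05 by limma). Mir684-1 had 23.6 to 27.2 RPKM with TTX, 34.5 to 39.6 RPKM untreated and 69.7 to 77.7 RPKM with Bic/4AP, again with no overlap. These rows share a name and may share reads, so they are not independent, and the row length that makes the reads of Mir684-1 whole (1342 bases) is far from the 86 bases of its RefSeq span.

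Mir703 had 65.3, 59.6 and 62.6 RPKM with TTX, 114, 81.9 and 97.5 RPKM untreated and 150, 146 and 148 RPKM with Bic/4AP. The 3 groups did not overlap. Its difference of Bic/4AP from untreated was 0.61 (log2, adjusted p = 0.00013 by limma), but -0.0788 with cyclic loess and 0.0404 with quantile normalization, whereas that of TTX (-0.63) kept its call under every alternative. Mir682 had 85.0, 83.5 and 72.6 RPKM untreated, 96.4, 101 and 119 RPKM with TTX and 104, 132 and 125 RPKM with Bic/4AP. The untreated libraries were below the other 6, which overlapped; the difference of Bic/4AP was 0.57 (log2, adjusted p = 0.000388 by limma), but -0.14 with cyclic loess, and that of TTX was 0.39.

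Mir6236 had the highest mean of all rows, with 326, 204 and 329 RPKM untreated, 119, 121 and 146 RPKM with TTX and 241, 287 and 206 RPKM with Bic/4AP. TTX lay below both other groups, which overlapped. The difference of TTX from untreated was -1.12 (log2, SE 0.18, adjusted p = 0.000202 by limma), but 0.0168 with quantile normalization. Mir568 had 34.3 to 38.6 RPKM with TTX, 39.9 to 56.8 RPKM untreated and 55.1 to 69.4 RPKM with Bic/4AP; the call of Bic/4AP against untreated (0.29, adjusted p = 0.0454 by limma) ended in most alternatives and turned to -0.0828 with quantile normalization. Mir692-2a, Mir692-2b, Mir6919, Mir6997, Mir7055 and Mir7090 were not called in any comparison. Names such as Mir684, Mir692 and Mir9 stand for more than 1 locus with similar sequence, and how reads that fit several places were counted is not stated.

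**Figure D3:**
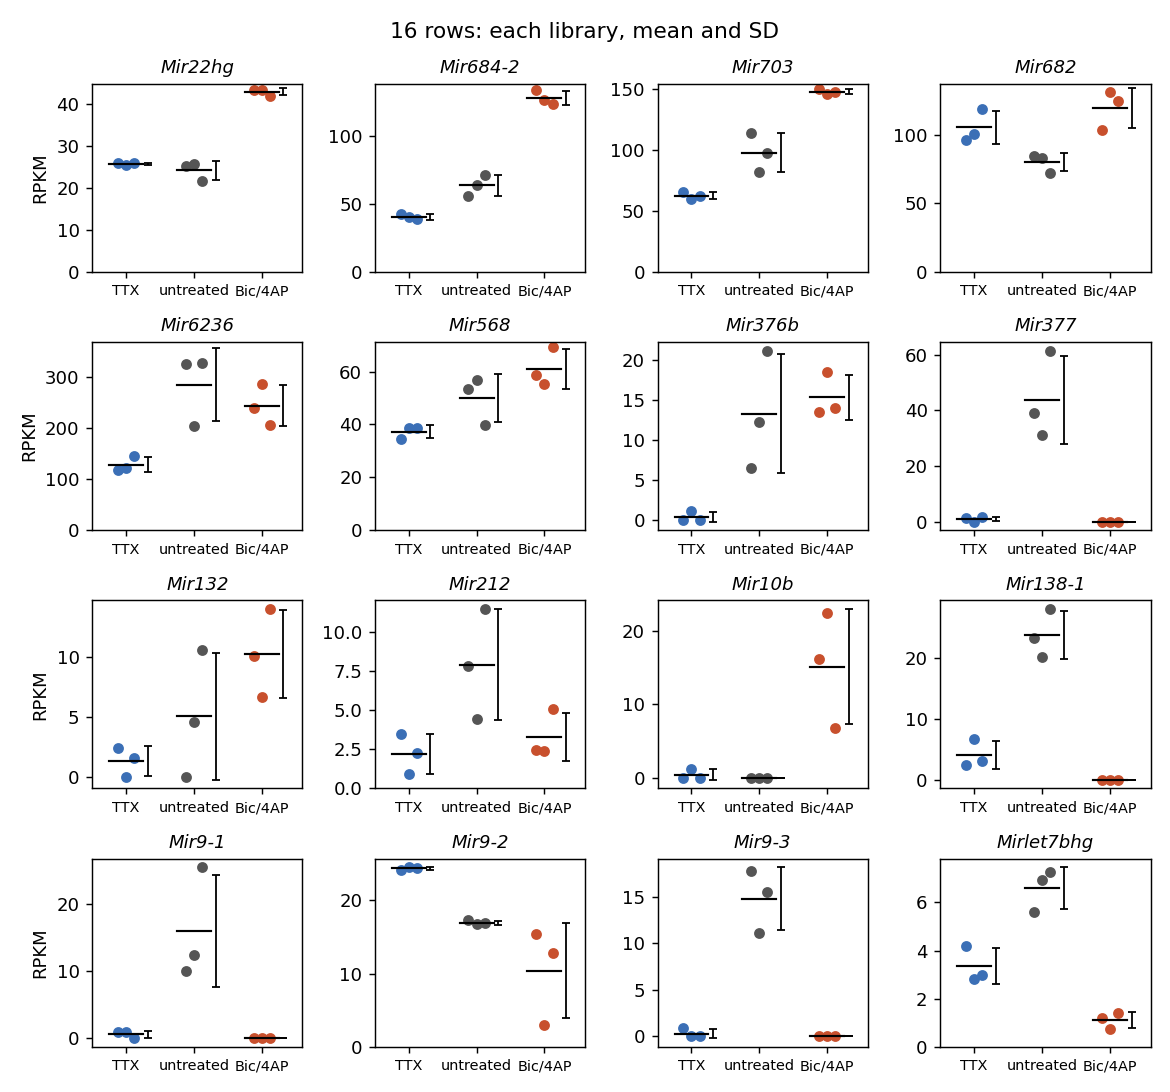
RPKM of 16 rows in each library (points), with the mean (line) and SD (bar) of 3 libraries per treatment; each panel has its own axis, which includes 0. Mir22hg and Mir684-2 are highest with Bic/4AP (42.8 and 128 RPKM on average), Mir377, Mir138-1, Mir9-1 and Mir9-3 are high in untreated neurons, and Mir10b is above 0 in 1 TTX library and all 3 Bic/4AP libraries.

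The Dlk1-Dio3 region of chromosome 12 held 30 of the 128 rows. It is an imprinted region whose maternal chromosome makes the noncoding RNAs Meg3, Rian and Mirg, in and between which the hairpins lie. The rows formed 3 groups with gaps of at most 10 kb. The first had 4 rows over 16.7 kb (Mir673, Mir493, Mir3070a, Mir3070b). The second had 3 rows over 6.84 kb (Mir341, Mir1188, Mir370), all inside Rian. The third had 23 rows over 37.8 kb, from Mir411 to Mir3072, of which 7 lie inside Mirg. Because 27 of the 30 rows reached the threshold in untreated libraries alone, their values are given without a test.

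Summed over the 30 rows, the level was 474, 395 and 560 RPKM untreated, 14.2, 7.04 and 5.14 RPKM with TTX and 18.9, 34.7 and 41.7 RPKM with Bic/4AP. Every untreated library was far above every treated one. In the cluster of 23 rows this rested on 153, 233 and 181 reads untreated, 12, 4 and 3 reads with TTX and 6, 12 and 12 reads with Bic/4AP. The means of single rows ran from 6.99 to 43.9 RPKM untreated (median 12.6), from 0 to 2.02 RPKM with TTX and from 0 to 15.4 RPKM with Bic/4AP, where the median was 0.

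Mir377 (chr12:109740510-109740577, inside Mirg) was the highest, with 39.2, 31.0 and 61.5 RPKM untreated from 15, 21 and 24 reads. It had 1.16, 0 and 1.52 RPKM with TTX and was at 0 in all Bic/4AP libraries, at least 13.4-fold lower against a floor of 3 reads over that group. Mir1188 (chr12:109611822-109611941, inside Rian) had 35.5, 35.1 and 56.6 RPKM untreated, 0.659, 1.41 and 0.861 RPKM with TTX and 0, 1.82 and 3.84 RPKM with Bic/4AP. Both rows were far above any treated library in each untreated one.

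Mir679, Mir668 and Mir409 were at 0 in all 6 treated libraries. Untreated, Mir679 had 36.0, 23.0 and 28.3 RPKM, and it was at least 24.5-fold lower with TTX and at least 9.65-fold lower with Bic/4AP. Mir668 had 26.9, 21.3 and 31.7 RPKM untreated, and Mir409 had 15.7, 22.8 and 35.3 RPKM. Mir134, whose product is known to restrain spine size through Limk1 in rat neurons, had 14.999, 8.47 and 19.6 RPKM untreated and 2.23, 2.38 and 1.46 RPKM with TTX, and was at 0 with Bic/4AP. Mir3070b, opposite Rtl1, had 35.9, 20.3 and 31.3 RPKM untreated, and 1 read in all 6 treated libraries together.

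Mir376b (chr12:109723458-109723539) was the exception: it reached the threshold in all untreated and all Bic/4AP libraries, and the untreated ones alone would have chosen it. It had 6.49, 12.2 and 21.2 RPKM untreated, 0, 1.03 and 0 RPKM with TTX and 13.5, 18.6 and 14.1 RPKM with Bic/4AP. The Bic/4AP libraries overlapped the untreated ones and lay above the TTX ones. Bic/4AP differed from TTX by 3.68 (log2, SE 0.36, adjusted p = 1.74e-06 by limma), on 17 reads against 1, and from untreated by 0.32 (95% interval -0.47 to 1.10). Mir376c, which shares the seed of miR-376b-5p, was at 0 in all TTX libraries and had 6.26, 14.2 and 8.20 RPKM untreated and 0, 2.56 and 2.71 RPKM with Bic/4AP. The identity of the reads on these similar hairpins is uncertain.

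**Figure D4:**
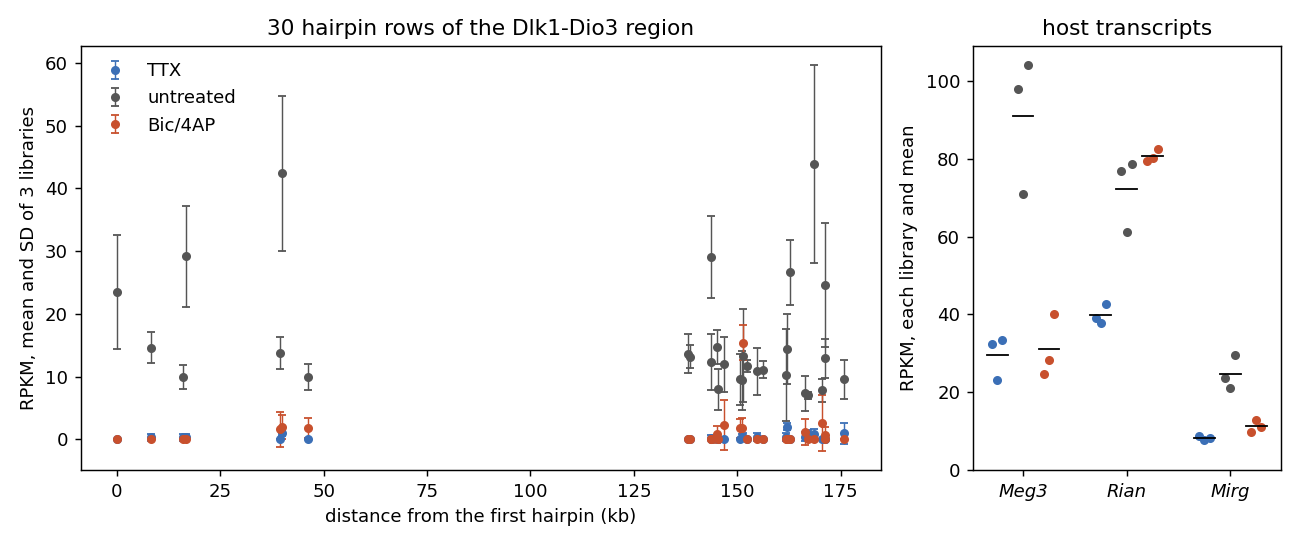
Left, RPKM of the 30 Dlk1-Dio3 hairpin rows (mean and SD of 3 libraries per treatment) by distance in kb from the first hairpin; right, RPKM of the host transcripts Meg3, Rian and Mirg in each library, with means. Untreated means run from 6.99 to 43.9 RPKM, and Mir376b at 15.4 RPKM is the Bic/4AP point that stands with them; Rian averages 80.6 RPKM with Bic/4AP and 72.2 RPKM untreated.

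The host transcripts of the region were not used in the choice and were tested. Meg3 had 98.0, 70.8 and 104 RPKM untreated, 32.4, 23.1 and 33.3 RPKM with TTX and 24.7, 28.2 and 40.2 RPKM with Bic/4AP. Both treated groups lay below untreated and overlapped each other, at 0.325 times (log2 difference -1.59, SE 0.19, adjusted p = 2.41e-05 by limma) and 0.341 times (-1.53, adjusted p = 1.44e-05 by limma). Mirg fell with TTX to 0.335 times and with Bic/4AP to 0.453 times (-1.46 and -1.07, adjusted p = 2.58e-06 and 9.17e-06 by limma), from 24.8 ± 4.35 RPKM untreated (SD, n = 3). Rian differed in kind: it had 76.8, 61.2 and 78.7 RPKM untreated, 39.0, 37.9 and 42.6 RPKM with TTX and 79.3, 80.0 and 82.4 RPKM with Bic/4AP. Rian fell with TTX (-0.84, adjusted p = 9.1e-06 by limma) and was not called with Bic/4AP (0.17, 95% interval -0.02 to 0.35), although its Bic/4AP libraries lay above the untreated ones; the 3 hairpins inside it averaged 1.60 to 1.89 RPKM with Bic/4AP and 9.96 to 42.4 RPKM untreated. Of 31 other microRNA rows in the region, 12 passed the filter of 1 RPKM in 3 libraries, all of them in the 3 untreated libraries and only 2 of them in 3 or more treated ones, so the filter largely fixed their direction and their calls are not given. The summed level of all 31 was 63.0, 88.8 and 79.3 RPKM untreated, 8.49, 0.518 and 8.71 RPKM with TTX and 0.338, 2.78 and 17.7 RPKM with Bic/4AP.

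Mir132 and Mir212, whose transcription is known to follow CREB and neuronal activity, lie side by side (chr11:75173388-75173747) and share a seed. Mir132 reached the threshold mainly through Bic/4AP libraries and Mir212 through untreated ones, so their differences are given without a p or a call. Mir132 had 0, 4.56 and 10.6 RPKM untreated, 2.40, 0 and 1.57 RPKM with TTX and 10.0, 6.60 and 14.0 RPKM with Bic/4AP, on 7, 3 and 9 reads. Bic/4AP overlapped untreated (log2 difference 1.43, SE 0.72, not called) and lay above TTX (2.39). The difference from untreated was called with quantile normalization (1.91), with cyclic loess (1.90) and without the third untreated library (2.19). Mir212 had 7.80, 4.41 and 11.5 RPKM untreated, 3.48, 0.927 and 2.27 RPKM with TTX and 2.43, 2.39 and 5.07 RPKM with Bic/4AP. TTX was below untreated (-1.47, SE 0.36). Bic/4AP overlapped untreated, at a difference of -1.02, which ran from -1.34 to -0.45 over all settings. It was -0.45 with quantile normalization, -0.55 with cyclic loess and -0.83 with voom. No test of the difference between Mir132 and Mir212 was made. H3K27ac peaks lay on or within 47 bases of Mir132 in all 4 lists, with scores of 74.5 and 1457 untreated and 113 and 3100 with Bic/4AP, and the CpGs within 500 bases of it (78 shared) had mean methylation fractions of 0.00461, 0.0130 and 0.00640 with TTX, untreated and with Bic/4AP.

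The microRNA miR-9, a regulator of neural progenitors, has 3 genes, and all were members. Mir9-1 (chr3:88215598-88215686) had 9.97, 12.4 and 25.4 RPKM untreated, 0.889, 0.948 and 0 RPKM with TTX and 0 in all Bic/4AP libraries. Mir9-3 (chr7:79505264-79505353) had 17.7, 11.1 and 15.5 RPKM untreated, 1 read with TTX and none with Bic/4AP. Mir9-2 (chr13:83738814-83738885, inside the long noncoding C130071C03Rik) was highest with TTX, at 24.2, 24.6 and 24.4 RPKM, with 17.3, 16.7 and 16.9 RPKM untreated and 15.3, 3.03 and 12.8 RPKM with Bic/4AP. Its groups did not overlap, but Bic/4AP rested on 5, 1 and 4 reads; the call against TTX (-1.39, adjusted p = 0.00521 by limma) ended with quantile normalization (-0.88, adjusted p = 0.0532 by limma) and cyclic loess (-0.77, adjusted p = 0.115 by limma). TTX against untreated was not called (0.50, adjusted p = 0.266 by limma) but was without the second Bic/4AP library (adjusted p = 0.000154 by limma). Bic/4AP against untreated was not called (-0.89, adjusted p = 0.0512 by limma). It was called without any single Bic/4AP library (-0.26 without the second, adjusted p = 0.0145 by limma). Pseudocounts of 5 RPKM and of 1 read, the filter on the mean and the replicate block also gave a call, and the other alternatives did not.

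Further microRNA genes known from neurons are given by their values. Mir137, linked to schizophrenia risk in humans, had 19.5, 17.9 and 19.1 RPKM untreated and was at 0 in all 6 treated libraries. Mir138-1, whose product is known to keep spines small in rat neurons, had 23.3, 20.3 and 28.2 RPKM untreated, 2.40, 6.82 and 3.13 RPKM with TTX and 0 with Bic/4AP. Its 3 groups did not overlap, and with Bic/4AP it was at least 10.6-fold lower than untreated. Mir124a-1, Mir124a-2 and Mir124a-3, the main neuronal microRNA genes of the brain, had 0, 5 and 1 reads in all 9 libraries and so were no members. Mir29a (10 reads), Mir138-2 (12 reads) and Mir1249 (18 reads) also stayed outside, as did Mir128-1 (9 reads), which was highest with Bic/4AP at 9.47, 3.11 and 6.58 RPKM, with 2.54, 2.86 and 0 RPKM untreated and 0 with TTX. No let-7 hairpin row was a member, with 0 to 18 reads each.

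Mirlet7bhg, the host transcript of let-7b and let-7c-2, was read more deeply than any hairpin of the family, with 406 reads. It had 5.60, 6.94 and 7.25 RPKM untreated, 4.196, 2.83 and 2.98 RPKM with TTX and 1.19, 0.732 and 1.39 RPKM with Bic/4AP. The groups did not overlap. Since it reached the threshold in the untreated libraries alone, only Bic/4AP against TTX is free of the choice there: it was 0.331 times TTX (log2 difference -1.04, SE 0.18, adjusted p = 0.000197 by limma).

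A few rows were higher with Bic/4AP. Mir10b (chr2:74726070-74726137, inside the span of Hoxd3) had 16.2, 22.4 and 6.78 RPKM with Bic/4AP from 5, 7 and 2 reads. It had 1 read in the TTX libraries and none untreated. Its Bic/4AP mean was 7.33 times the floor of 3 reads over the untreated group. Mir325 had 8.19, 8.07 and 8.54 RPKM with Bic/4AP from 4 reads each, against 4 reads in 1 of 3 libraries of each other group. Mir10b, Mir325, Mir3535 and Mir5098 are the 4 rows that reached the threshold in Bic/4AP libraries alone, so no test is given. Mir670 had 8.84, 6.54 and 13.8 RPKM with Bic/4AP, above untreated (0, 3.01 and 5.23 RPKM) and TTX (3.95, 2.53 and 3.10 RPKM), with a log2 difference from untreated of 1.82 (SE 0.52). Mir1954, inside Eng, had 14.7, 20.3 and 12.3 RPKM with Bic/4AP, 2.37, 4.01 and 9.29 RPKM untreated and 1.12 RPKM in 1 TTX library; all 3 groups stood apart. Both rows reached the threshold mainly through Bic/4AP libraries.

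Several rows were seen untreated and with TTX and were near 0 with Bic/4AP, the shallowest group. Mir7068 had 14.4, 16.3 and 11.8 RPKM untreated, 5.34, 5.70 and 2.79 RPKM with TTX and 0 with Bic/4AP. Mir3104 had 8.73, 8.22 and 15.7 RPKM untreated and 6.48, 4.84 and 6.78 RPKM with TTX, against 1 read in the Bic/4AP libraries. Mir6906 had 6.12 to 18.02 RPKM untreated and 6.82 to 8.91 RPKM with TTX, also against 1 read. The TTX mean of Mir7068 was 1.53 times the floor of 3 reads over the Bic/4AP group, with the error of that mean not covered. For Mir3104 and Mir6906 the log2 differences of Bic/4AP from TTX were -2.29 and -2.36 (adjusted p = 0.000115 and 0.00127 by limma). Mir761, Mir5133 and Mir331, which reached the threshold mainly through TTX libraries, had 6.24 to 12.2, 3.08 to 7.67 and 7.03 to 12.4 RPKM there, 2.34 to 9.17, 0 to 6.79 and 0 to 5.44 RPKM untreated, and 0 to 2.91, 0 and 0 to 4.60 RPKM with Bic/4AP.

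Host genes were compared over the 60 hairpin rows that lie inside another tested gene on the same strand, outside the Dlk1-Dio3 region, with 59 host genes among them. The deposited table and the RefSeq table give gene spans, so exonic and intronic hairpins cannot be told apart. The median host differed from untreated by -0.17 with Bic/4AP and -0.00 with TTX on the log2 scale, while the median hairpin row differed by -1.81 and -1.14. Of the 59 hosts, 17 rose and 30 fell with Bic/4AP, and 18 rose and 19 fell with TTX (all genes: 29.6% and 42.5%, then 40.6% and 23.5%). The ratio of hairpin to host RPKM had a median of 0.296 untreated, 0.119 with TTX and 0.0738 with Bic/4AP, and was highest untreated in 41 of 60 pairs. Of these 60 rows, 21 reached the threshold in untreated libraries alone and 4 in all 9, while the hosts were not chosen by level, so a larger shift of the hairpin rows and a higher ratio untreated are partly built in by the choice and are given as a description. In single libraries the median ratio was 0.271 to 0.290 untreated, 0.0975 to 0.114 with TTX and 0 to 0.0717 with Bic/4AP.

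**Figure D5:**
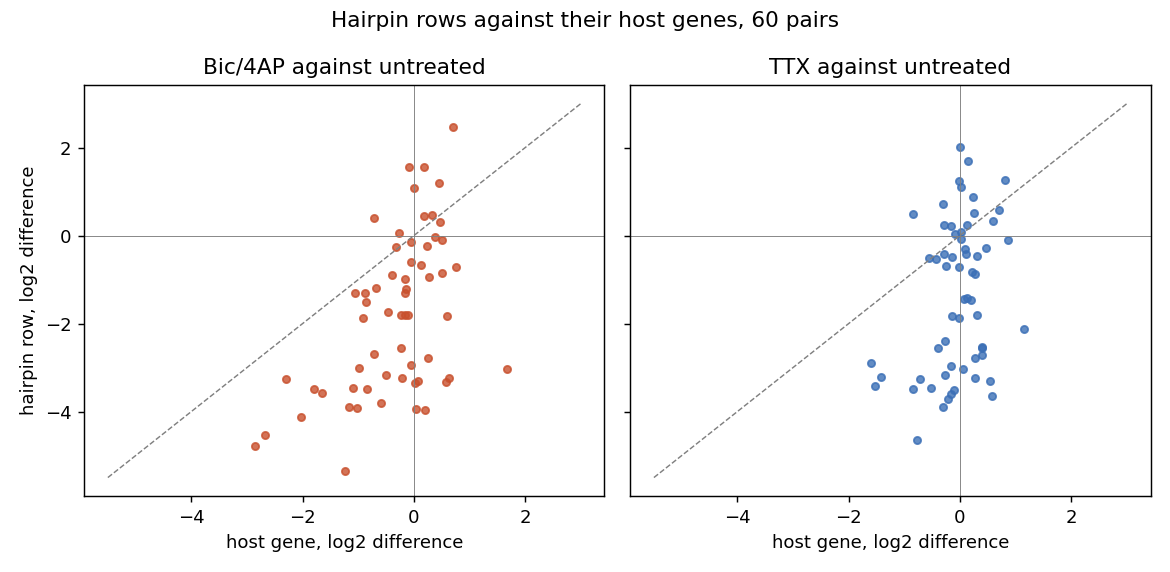
Log2 difference from untreated of 60 hairpin rows (vertical axis) against that of their host genes (horizontal axis), with Bic/4AP (left) and TTX (right); the dashed line marks equal differences. The median host lies at -0.17 with Bic/4AP and -0.00 with TTX. Of 59 hosts, 17 were called higher and 30 lower with Bic/4AP (29.6% and 42.5% of all genes). With TTX, 18 were called higher and 19 lower (40.6% and 23.5%). Below the line lie 50 of 60 hairpin rows with Bic/4AP and 45 of 60 with TTX, a count that the choice of the hairpin rows by level partly fixes.

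Single pairs are given by their values, since the hairpin rows were chosen by level and only the hosts were not. Ifrd1, a transcription coregulator, rose with Bic/4AP from 35.8 to 117 RPKM (log2 difference 1.67), while Mir1938 had 7.10, 5.01 and 10.5 RPKM untreated and 0 in all treated libraries, after reaching the threshold in the untreated libraries alone. Actg1, a cytoplasmic actin, rose from 98.6 to 168 RPKM with Bic/4AP (0.77), while Mir6935 had 13.9, 12.5 and 16.3 RPKM untreated and 3.45, 6.81 and 21.6 RPKM with Bic/4AP, the last of which decides that mean. Some hosts fell with both treatments. Kif1c, a kinesin motor, had 25.9 RPKM untreated, 9.02 with TTX and 3.17 with Bic/4AP, and Mir6925 inside it had 22.8 RPKM untreated, 1.61 with TTX and 0 with Bic/4AP. Dennd6b, the host of Mir6958, and the noncoding Ftx, the host of Mir374, also fell: Dennd6b from 23.2 to 7.32 and 2.32 RPKM with TTX and Bic/4AP, and Ftx from 8.43 to 2.08 and 1.98 RPKM. Mir6516 inside 2810008D09Rik had 41.1 ± 13.3 RPKM untreated (SD, n = 3), above its host at 24.0 RPKM, and 0.735 RPKM with TTX. The host of Mir325, 5330434G04Rik, rose with Bic/4AP (10.7 to 17.95 RPKM, log2 difference 0.70); Mir325 itself was chosen through the Bic/4AP libraries.

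Some hairpins outside chromosome 12 also lay next to each other. Mir2861 and Mir3960, 0.166 kb from end to end (chr2:32712807-32712972), had 18.3 to 35.8 RPKM untreated, 0 to 5.78 RPKM with TTX and 0 to 2.98 RPKM with Bic/4AP. Mir7220 and Mir6982, inside the span of Camk2a, had 28.4 to 58.9 RPKM untreated and 1.16 to 7.37 RPKM in the treated libraries. Mir6914 and Mir6915, both inside Ankrd52, were unlike each other. Mir6915 had 18.01, 23.2 and 30.3 RPKM untreated, 4.89 to 7.49 RPKM with TTX and 0 to 6.68 RPKM with Bic/4AP. Mir6914 had 6.08, 4.12 and 7.16 RPKM untreated, 3.25 to 4.25 RPKM with TTX and 4.54 to 5.97 RPKM with Bic/4AP, so that its untreated and Bic/4AP libraries overlapped. The difference between them was not tested.

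The proteins that process microRNAs are listed here as 52 genes, of which 50 were tested. With Bic/4AP 13 were higher and 32 lower than untreated, with TTX 13 and 19 (all genes: 29.6% and 42.5%, 40.6% and 23.5%), and the medians were -0.28 and -0.12 on the log2 scale. Among nuclear factors, Dgcr8 had 18.4 RPKM untreated, 16.1 with TTX and 7.64 with Bic/4AP (Bic/4AP against untreated -1.17, adjusted p = 1.31e-07 by limma), and Drosha had 33.8, 34.3 and 28.8 RPKM (-0.22). Srrt, which links the cap of primary transcripts to processing, fell from 43.8 to 8.09 RPKM (-2.29, adjusted p = 3.9e-09 by limma). Xpo5 had 26.2, 27.7 and 16.3 RPKM in the same order and Dicer1 22.0, 20.01 and 13.4 RPKM, both lower with Bic/4AP (-0.65 and -0.68). Ago2, the slicing Argonaute, rose with Bic/4AP from 29.9 to 46.1 RPKM (0.61, adjusted p = 7.37e-07 by limma), while Ago4 fell from 5.69 to 2.01 RPKM. Mov10, a helicase of silencing complexes, and Tnrc6c, an Argonaute partner, fell with both treatments: Mov10 from 10.6 to 2.74 and 0.844 RPKM and Tnrc6c from 38.3 to 17.8 and 11.7 RPKM with TTX and Bic/4AP. Drosha, Dgcr8, Xpo5 and Dicer1 were not called with TTX.

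H3K27ac, a mark of active promoters and enhancers, was compared as the share of the 128 rows with a peak within 5 kb. In the first lists the share was 14.1% untreated (95% interval 8.55 to 21.3, exact binomial) and 21.1% with Bic/4AP (14.4 to 29.2), and in the second 32.03% (24.1 to 40.9) and 41.4% (32.8 to 50.4). The lists differ in size, with 4846 and 7721 peaks in the first and 49701 and 55035 in the second, so the shares differ more between lists of a treatment than between treatments. The intervals of the treatments overlap at 5 kb, and neighbouring rows share peaks. Within 50 kb the second lists gave 71.9% untreated (63.2 to 79.5) and 95.3% with Bic/4AP (90.1 to 98.3). The intervals at both distances treat rows as independent, which rows that share peaks are not, so they cannot test the treatment. Of the 30 Dlk1-Dio3 rows, 4 untreated and 30 with Bic/4AP had such a peak in the second lists, against 4 and 4 in the first. Of the other 98 rows, 88 untreated and 92 with Bic/4AP had one in the second lists, against 59 and 72 in the first. Of the 989 placed microRNA rows outside the rule, 6.37% and 24.4% had a peak within 5 kb in the untreated lists. In the Bic/4AP lists 9.50% and 28.1% of them had one. Within 50 kb the second lists gave 66.4% of them untreated and 71.8% with Bic/4AP. A peak lay within 5 kb of 15 of the 128 rows in all 4 lists, and of 70 rows in none. Mir7012 and Mir7067 had such a peak in both Bic/4AP lists and in no untreated list. In the Dlk1-Dio3 region no row had a peak within 5 kb in either untreated list or the first Bic/4AP list, and 7 of 30 had one in the second Bic/4AP list. H3K4me1, a mark of enhancers, had a peak within 5 kb of 10.9% and 19.5% of the rows in the 2 untreated lists.

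CpG methylation near the rows was alike in the 3 libraries. The mean fraction over 127 rows with CpGs within 500 bases was 0.732 with TTX, 0.727 untreated and 0.729 with Bic/4AP, and for microRNA rows outside the rule it was 0.711, 0.707 and 0.706. With 1 library per treatment there is no test, and the depth is unknown. The largest difference between libraries at a row was 0.146 and the median 0.0335. Of the 127 rows, 17 were below 0.2 in all 3 libraries, among them Mir132, Mir212, Mir9-1, Mir9-2, Mir9-3, Mir137, Mir10b, Mir2861 and Mir3960, 73 were above 0.8 in all 3, and 37 were in neither class, of which 13 lay between 0.3 and 0.7 in all 3. The 30 Dlk1-Dio3 rows had a mean of 0.904, 0.888 and 0.893, with none below 0.2.

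The promoter of Meg3 (chr12:109540746-109541045, plus strand, GRCm38.p6) is known to be imprinted and methylated on the paternal chromosome. It had mean fractions of 0.412, 0.553 and 0.376 over 11 CpGs with TTX, untreated and with Bic/4AP. Peaks of H3K27ac overlapped it in all 4 lists, with scores of 107 and 981 untreated and 103 and 2011 with Bic/4AP. It is shown as the promoter from which the transcripts over the Dlk1-Dio3 hairpins are thought to start; capitals mark TGACGTCA, the cAMP response element, 57 bases before the start site, which 1.79% of promoter windows hold.
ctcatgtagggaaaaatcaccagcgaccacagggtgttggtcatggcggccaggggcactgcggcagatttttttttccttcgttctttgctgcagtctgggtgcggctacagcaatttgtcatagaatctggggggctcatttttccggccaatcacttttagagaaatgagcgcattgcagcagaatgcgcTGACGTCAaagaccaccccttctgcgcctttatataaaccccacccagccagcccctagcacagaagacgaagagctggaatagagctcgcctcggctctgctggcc

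Likeness to the 23-row cluster was measured as Pearson's r of log2(RPKM + 1) with the mean log2(RPKM + 1) of its rows over the 9 libraries, as a description with no p. Outside the region, the members most like it were Mir137 (r = 0.995), Mir6769b (0.995), Mir7006 (0.994) and Mir1938 (0.991), and Mir673 of the first Dlk1-Dio3 group stood at 0.993. Among all genes tested, St6galnac2 (0.999), F5 (0.998), Bdp1 (0.998), Pkd1l3 (0.998) and Slc4a5 (0.998) came closest. All of these are high untreated and low in the 6 treated libraries, and the points share those 3 groups.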

How the data were processed

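RNA-seq libraries were made from poly(A)-selected RNA with a strand-preserving kit, and methylation libraries by post-bisulfite adaptor tagging, per the labels' protocols. TopHat, Bowtie2 2.2.4, SAMtools 0.1.19 and MACS 1.4.1 with the mm10 build are named in the submitters' processing notes; the counting tool, its strand setting and its treatment of reads that fit several places are not stated there, so overlapping and antisense genes cannot be separated. The authors deposited 1 RPKM value per gene and library; the unit was taken from the values. Each methylation value is a fraction per CpG as deposited by the authors, without coverage. Each peak has a score deposited by the authors, and their lists are per sample.

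Of 24062 table rows, 4 with repeated names were left out. RPKM was tested on log2(RPKM + 1) with limma 3.58.1 (R 4.3.3) with an intensity trend, all 9 libraries in 1 fit, over genes at 1 RPKM or more in 3 libraries, with Benjamini-Hochberg adjustment. The procedure was tested on simulated data. The changed genes there had a mean above 20 reads a library, so changes of rows with few reads were not covered. Reads were recovered from RPKM steps with a tolerance of 0.1 read. Depth differed between libraries, so that 1 read on a 1 kb gene was worth 0.0791 to 0.230 RPKM. The members, gene lists and rule for named genes (largest non-overlapping called changes with 20 reads or more, most reads, highest means, neuronal families) were chosen with earlier results of these data known, and further rows were named after their values were seen. Clusters join hairpins within 10 kb. Alternatives were 18 other settings of the fit: pseudocounts, filters, scalings, voom, a replicate block and each library left out.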

Additional observations from a re-analysis of the deposited data

How the results depend on the processing

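Over 2322 refits of single genes (43 genes, 3 comparisons), 2181 kept direction and side of the threshold, 84 lost the call, 45 gained it and 12 reversed. Reversals came with cyclic loess or quantile normalization, and for Mir377 with voom. With cyclic loess the log2 difference of Bic/4AP from untreated was -0.14 for Mir682, -0.0788 for Mir703 and -0.0309 for Mir568, and that of Bic/4AP from TTX was -0.74 for Mir682, -0.61 for Mir6236, 0.54 for Mir692-2a and 0.53 for Mir692-2b. With quantile normalization the values were -0.0828 for Mir568 (Bic/4AP from untreated), 0.0168 for Mir6236 (TTX from untreated), and -0.68 for Mir682 and -0.0723 for Mir6236 (Bic/4AP from TTX); with voom, Mir377 was at 0.30 (Bic/4AP from TTX). The cause was not tested. Quantile normalization moved the median of all genes from -0.12 to 0.06 with Bic/4AP and from -0.33 to -0.03 in Bic/4AP against TTX.

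Choosing rows by a mean of 5 RPKM instead gave 76 rows, of which 53 were called with Bic/4AP (69.7%, against 72.1% of all genes) and 52 with TTX (68.4%, against 64.1%); fewer rows entered. Leaving out 1 library gave 96 to 104 microRNA rows called with Bic/4AP, 90 to 100 with TTX and 49 to 57 in Bic/4AP against TTX, where 68.2% to 73.5%, 56.2% to 68.3% and 71.4% to 79.6% of all genes were called. Whether the replicate numbers pair the libraries is not labelled. Deviations from the group mean correlated at -0.173 to 0.0435 between same-numbered libraries, which cannot settle it with 3 libraries a group. With a replicate block 106, 98 and 60 rows were called, against 100, 94 and 55 without it (all genes with the block: 71.7%, 63.1% and 76.4%). The share of rows with an H3K27ac peak was 6.25% and 15.6% untreated and 7.81% and 18.8% with Bic/4AP by overlap, 49.2%, 71.9%, 59.4% and 95.3% within 50 kb, and 5.47% untreated and 9.38% with Bic/4AP in the first lists at a score of 100 or more. Mean methylation within 2 kb was 0.686 with TTX, 0.681 untreated and 0.682 with Bic/4AP. With a median of 0 to 8 reads per row and library, a row at 0 was not detectable at this depth rather than absent.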
